A study of Mus musculus with 8 samples.

Results

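The 9 genes described here are the Myc family (Myc, Mycn and Mycl), the D-type cyclins (Ccnd1, Ccnd2 and Ccnd3) and the Cip/Kip inhibitors of cyclin-dependent kinases (Cdkn1a, Cdkn1b and Cdkn1c), taken by symbol from a table of 21291 genes. They were measured by sequencing polyadenylated RNA from paired kidneys dissected out of E14.5 mouse embryos. The 4 mutant libraries were labelled Six2-GFPcre tg/+, Etv4-/-, Etv5fl/fl and the 4 control libraries Six2-GFPcre tg/+, Etv4+/-, Etv5fl/fl. Both groups therefore carried the Cre transgene, which is driven in nephron progenitors by Six2 sequences, and 2 floxed copies of Etv5, and as labelled they differed at Etv4 alone. The Etv4 null allele is not limited to any cell type by the labels, and the RNA came from whole kidneys, so fewer cells of a type and less RNA per cell cannot be told apart.

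Myc proteins are basic helix-loop-helix transcription factors that pair with Max and drive growth and ribosome production. D-type cyclins activate Cdk4 and Cdk6, which phosphorylate the retinoblastoma proteins and release E2F factors for entry into S phase, and the Cip/Kip proteins p21 (Cdkn1a), p27 (Cdkn1b) and p57 (Cdkn1c) bind cyclin-kinase complexes and hold cells out of the cycle. In the fetal kidney, Mycn is expressed in the nephrogenic zone, where progenitors renew, and p57 marks podocytes that have left the cycle. Etv4 and Etv5 are ETS-family factors downstream of FGF and GDNF-RET signalling, and the comparison sets Etv4 null against Etv4 heterozygous kidneys, with Etv5 floxed and Cre present in both.

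Total estimated counts were 35308934 to 38824018 in mutants and 15515139 to 39548327 in controls, with control 4 the shallowest library and 18.4% of its counts from Lars2. Levels are given as normalized counts, which are estimated read counts divided by a size factor for each library's depth. Etv4 had 164 to 294 normalized counts in mutants, against 2311 to 2816 in controls. Summed over the marker lists, nephron progenitor genes reached 4219.7 to 10612 normalized counts in mutants and 17048 to 32510.1 in controls, and podocyte genes 8603 to 19192 in mutants and 5658 to 11388 in controls. Proximal tubule genes summed to 773 to 10488 in mutants and 331 to 3604 in controls, and were highest in mutant 4, mutant 3 and control 4. The Y-linked gene Ddx3y was at 0 in every mutant and at 1553 to 1629 in controls, so embryo sex and genotype cannot be told apart. Mutants 1 and 2 and controls 1 and 2 carry the same number in their library names, as mutant 4 and control 4 do with a different number. The labels do not say what these numbers stand for, and values within each set are given beside the pooled ones. By limma, 2 of 8 nephron progenitor genes and 1 of 6 ureteric tip genes were lower in mutants past the threshold, and 0 of the genes tested from the other marker lists passed.

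By limma, a test of linear models that shares the spread across genes, 0 of the 9 genes passed an adjusted p of 0.05, where 0.301% of the 14974 genes tested did (0.0801% higher and 0.22% lower in mutants). At an unadjusted p under 0.05 there were 3, Myc and Ccnd2 lower and Ccnd1 higher in mutants, where 12% of all genes were. The mutant and control libraries did not overlap for 2 of the 9, Myc and Ccnd1, where 8.6% of all genes did not overlap (4.17% with mutants above and 4.43% with mutants below). All 9 passed the filter on low values, and the median fold change of all genes tested was 0.0087 on the log2 scale.

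**Figure D1:**
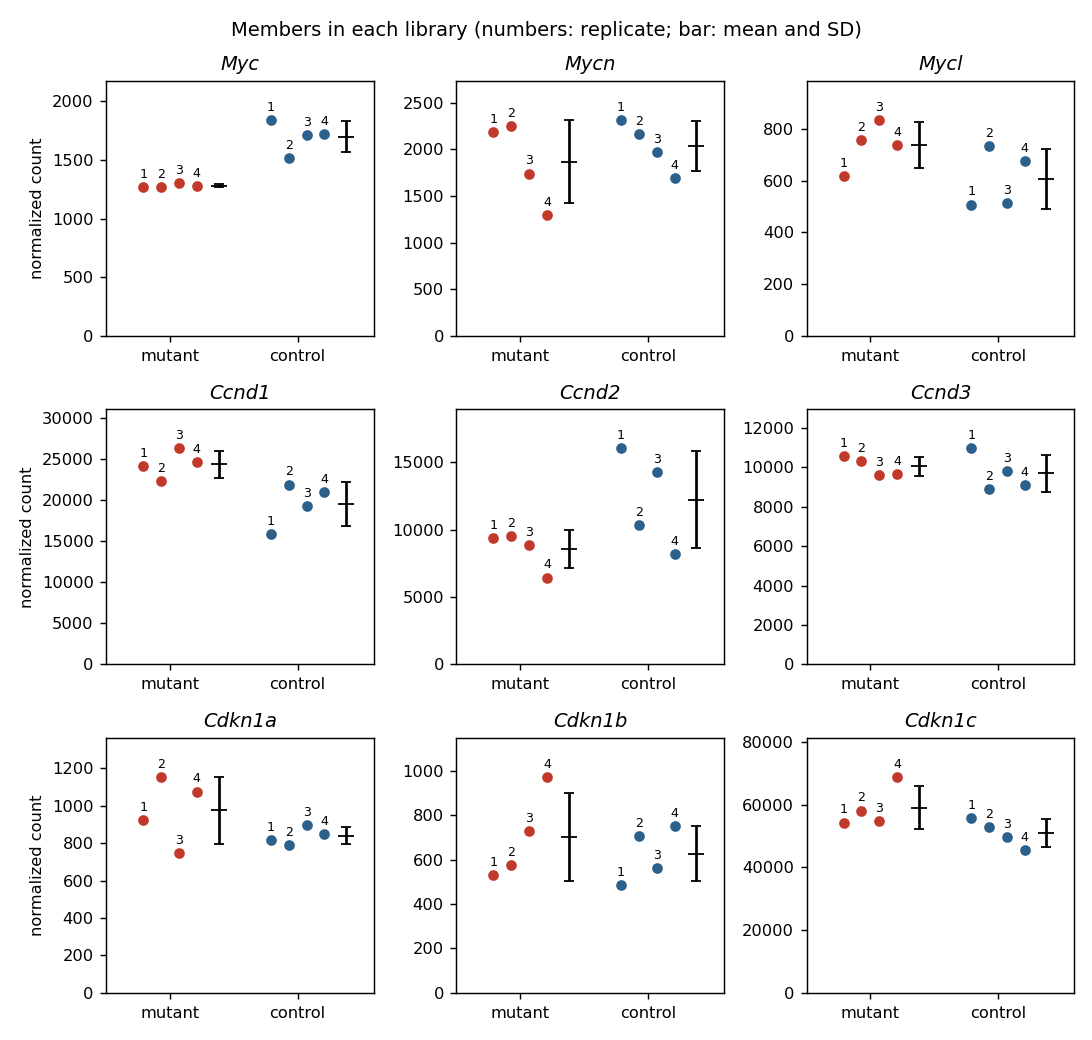
Normalized counts (vertical axis, from 0) of the 9 genes in each mutant and control library, with the mean and SD of each group (n = 4). Points are numbered by replicate. The 4 mutant values of Myc lie between 1269 and 1301, all below the controls, and those of Ccnd1 all lie above the controls.

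Myc had the smallest p of the 9 genes. It encodes the best known factor of its family and lies at chr15:61985391-61990374 on the plus strand (GRCm38, ENSMUSG00000022346). Mutants 1 to 4 had 1269, 1272, 1301 and 1279.9 normalized counts, against 1841, 1517, 1716 and 1719 in controls 1 to 4. Every mutant library was below every control library, and the group means were 1280.4 ± 14.48 in mutants and 1698 ± 134 in controls (SD, n = 4 each). The mutant SD was 1.13% of the mean, below the 2.57% that counting error alone would give. The closeness of the mutant values therefore cannot be read as likeness between the kidneys. In log2 terms the fold change was −0.40 (SE 0.081, 95% interval −0.58 to −0.22), or 0.756-fold, and it missed the limma threshold over all genes (adjusted p = 0.0834). The difference was −0.40 between mutants 1 and 2 and controls 1 and 2, and −0.42 between mutant 4 and control 4. With library quality weights in limma voom the gene passed (log2 fold change −0.41, adjusted p = 0.0155). That setting called 574 of 14974 genes, against 45 in the main analysis. It passed in 1 of 22 alternative analyses, whose adjusted p ran from 0.0155 to 0.915.

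Mycn, expressed in the nephrogenic zone, had overlapping groups. It lies at chr12:12936093-12941914 on the minus strand. Mutants 1 to 4 had 2189, 2244.5, 1740.0 and 1291 normalized counts, against 2314, 2166, 1968 and 1697 in controls 1 to 4. Mutants 1 and 2 lay within the range of controls 1 to 3. Mutant 3 lay below those 3 controls and above control 4 alone, the shallowest library, and mutant 4 lay below all 4 controls. The group means were 1866 ± 445 in mutants and 2036 ± 267 in controls (SD, n = 4 each). A log2 fold change of −0.15 (SE 0.18, 95% interval −0.54 to 0.24) did not pass (limma adjusted p = 0.782). It was −0.014 between mutants 1 and 2 and controls 1 and 2 and −0.39 between mutant 4 and control 4, and it turned to 0.016 without mutant 4. Six2, needed for progenitors to renew, had 3297, 2799, 1181 and 608 normalized counts in mutants 1 to 4, against 6108 to 13696 in the 4 controls. It was thus below the controls also in mutants 1 and 2, where Mycn lay within the range of controls 1 to 3.

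Mycl, the least studied of the 3, lies at chr4:122995652-123002485 on the plus strand. It had 618, 757, 834 and 737 normalized counts in mutants 1 to 4, against 508, 733, 512 and 675 in controls 1 to 4. The groups overlapped, and controls 1 and 3 stood below the other 6 libraries. The log2 fold change of 0.29 (SE 0.15, 95% interval −0.049 to 0.63) did not pass (limma adjusted p = 0.49), and was 0.17 between mutants 1 and 2 and controls 1 and 2 and 0.13 between mutant 4 and control 4.

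RefSeq's promoter windows on GRCm38.p6, 250 bases before to 50 after a transcription start, held 7 windows for 5 of the 9 genes. Myc, Ccnd1, Ccnd2 and Cdkn1c had no entry. The windows were searched on both strands for the E2F site TTTGGCGC, the ETS core CCGGAA, the E-box CACGTG and the p53 half-site, with overlapping matches of a motif allowed. The E2F site occurred in 0.514% of all 32851 windows and in 1 of the 7, that of Mycn, where it stood 2 times, with the first bases of the matches 183 and 168 bases before the start. The Mycn stretch at chr12:12941937-12942086 (minus strand) is shown because it was the single window of the 7 with this site, with the matches in capitals.
Mycn: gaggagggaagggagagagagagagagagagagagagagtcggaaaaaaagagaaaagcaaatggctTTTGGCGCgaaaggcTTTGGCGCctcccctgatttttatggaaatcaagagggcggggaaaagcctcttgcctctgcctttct
The E-box, which Myc-Max dimers bind, occurred in 7.15% of all windows and in 0 of the 7. These matches describe letters and say nothing about binding.

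The D-type cyclins had mean levels that differed in opposite directions, none past the threshold. Ccnd1, a cyclin of the early nephron and a textbook Wnt and growth factor target, lies at chr7:144929931-144939925 on the minus strand. Mutants 1 to 4 had 24202, 22381, 26340.0 and 24682 normalized counts, against 15898, 21936, 19286 and 21055 in controls 1 to 4. The lowest mutant library, mutant 2, was 22381 and the highest control library, control 2, was 21936, so the groups were separated by a narrow gap. On the log2 scale the fold change was 0.33 (SE 0.11, 95% interval 0.078 to 0.58), or 1.26-fold, and missed the threshold (limma adjusted p = 0.273, or 0.0713 to 0.626 over 22 alternatives). It was 0.32 between mutants 1 and 2 and controls 1 and 2, and 0.23 between mutant 4 and control 4. Of the 31-base words in Ccnd1 transcripts, 22.3% also occur, on the opposite strand, in the overlapping LTO1, so part of its count may be shared with that gene. Early nephron marker genes, a list without Ccnd1, summed to 16991 to 19534 in mutants and 11139.8 to 15649 in controls, and their part in the Ccnd1 difference was not tested.

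Ccnd2, the D-type cyclin named in the authors' deposited table, lies at chr6:127125162-127152193 on the minus strand. Mutants 1 to 4 had 9363, 9509, 8844 and 6448 normalized counts, against 16023, 10326, 14285 and 8169.9 in controls 1 to 4. All 4 mutants lay below the control median, but control 4 lay below mutants 1, 2 and 3, and controls 1 and 3 stood well above the other 6 libraries. The group means were 8541 ± 1424.5 in mutants and 12201 ± 3592.5 in controls (SD, n = 4 each). Over all 8 libraries the log2 fold change of −0.48 (SE 0.21, 95% interval −0.95 to −0.0095) did not pass over all genes (limma adjusted p = 0.402, or 0.0632 to 0.984 over 22 alternatives). Without control 4 it was −0.66 (limma adjusted p = 0.0961). The value was −0.45 between mutants 1 and 2 and controls 1 and 2, and −0.34 between mutant 4 and control 4.

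The authors' deposited table of 644 genes lists Ccnd2 and none of the other 8. It gives Ccnd2 a mean normalized count of 12389.7, an adjusted p of 0.00149 and a fold change of −0.66 in log2 (SE 0.16). The mean normalized counts in the authors' deposited table were within 1% of the mean of the 7 libraries other than control 4 for 99.7% of 628 genes matched by symbol, against 0.637% for the mean of all 8 libraries. Over those 7 libraries Ccnd2 averaged 12389.4 normalized counts here, and the log2 ratio of its group means was −0.66, against −0.51 over all 8. The largest adjusted p in that table was 0.0498, and the sources used here do not say which libraries it rests on.

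Ccnd3 lies at chr17:47505051-47599691 on the plus strand and was the steadiest of the 3. It had 9615 to 10568 normalized counts in mutants and 8910.1 to 10949 in controls. The groups overlapped, and its log2 fold change was 0.055 with a 95% interval of −0.14 to 0.25 (limma adjusted p = 0.842). It was 0.080 between mutants 1 and 2 and controls 1 and 2, and 0.086 between mutant 4 and control 4. Its second RefSeq start, inside the gene, was the single window of the 7 with the ETS core, which occurred in 14.9% of all windows. The stretch before that start, chr17:47593217-47593366 (plus strand), is shown because the mutants lack an ETS factor, with the ETS core in capitals.
Ccnd3: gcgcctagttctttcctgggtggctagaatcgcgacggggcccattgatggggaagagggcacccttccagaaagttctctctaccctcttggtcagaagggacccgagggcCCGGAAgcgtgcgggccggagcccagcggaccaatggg
The other Ccnd3 window and those of the other 4 genes hold no such letters.

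**Figure D2:**
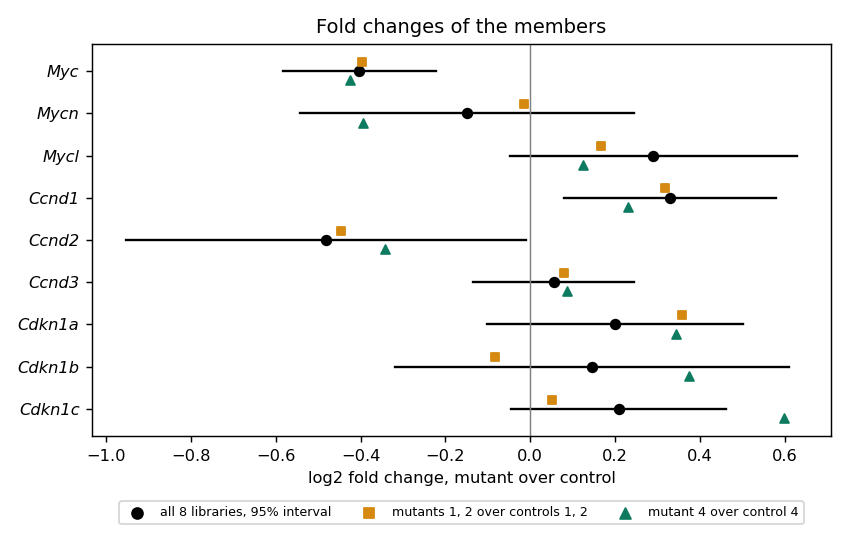
Log2 fold changes, mutant over control (horizontal axis), of the 9 genes with 95% intervals from limma over all 8 libraries (black), beside the differences of group means of mutants 1 and 2 and controls 1 and 2 (squares), and of mutant 4 and control 4 (triangles). The intervals of Myc, Ccnd1 and Ccnd2 leave out 0, and the Cdkn1c value is 0.051 for the squares and 0.60 for the triangles.

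The Cip/Kip inhibitors had positive fold changes that did not pass. Cdkn1c, an imprinted gene read from the maternal copy, lies at chr7:143458339-143461050 on the minus strand and had the highest counts of the 9. Mutants 1 to 4 had 54348, 58172, 54676 and 68907 normalized counts, against 55792, 52815, 49855 and 45507 in controls 1 to 4. Mutant 4 stood above every other library and control 4 below, and the remaining libraries overlapped between groups. Its log2 fold change was 0.21 (SE 0.11, 95% interval −0.046 to 0.46, limma adjusted p = 0.509), and it was 0.13 without mutant 4, 0.051 between mutants 1 and 2 and controls 1 and 2, and 0.60 between mutant 4 and control 4. Of the 31-base words in Cdkn1c transcripts, 27.2% also occur in the antisense gene Gm44732, whose reads cannot be told apart here. The recovered Cdkn1c counts were whole in all 8 libraries. Mutant 4 also had the highest podocyte sum, at 19192, but control 4 had the highest podocyte sum of the controls, at 11388, and the lowest Cdkn1c, and the part of podocytes was not tested.

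Of the genes around Cdkn1c in its imprinted domain and the adjoining Igf2 domain, 6 of 8 were tested by limma and 0 passed, with 0 also at an unadjusted p under 0.05. Their median log2 fold change was −0.10, and turned to 0.029 under total-count scaling and to 0.090 without control 4. Slc22a18, a transporter gene beside Cdkn1c that is also read from the maternal copy, stood at 0.56 (SE 0.27, adjusted p = 0.448), and Igf2, the growth factor read from the paternal copy, at 0.19 (SE 0.13, adjusted p = 0.609). These were the only positive values of the 6. The other 4 were negative, Kcnq1 at −0.13, Phlda2 at −0.12, Nap1l4 at −0.089 and Cd81 at −0.19. Kcnq1ot1 and H19 are not analysed here.

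Cdkn1a, the p53-induced inhibitor, lies at chr17:29090976-29100727 on the plus strand. It had 922, 1153, 747 and 1075 normalized counts in mutants 1 to 4, against 817, 791, 896.5 and 847 in controls 1 to 4. Mutant 3 was the lowest of all 8 libraries while the other 3 mutants were the highest. A log2 fold change of 0.20 (SE 0.14, 95% interval −0.10 to 0.50) did not pass (limma adjusted p = 0.597), and was 0.36 between mutants 1 and 2 and controls 1 and 2 and 0.34 between mutant 4 and control 4. It was 0.11 without mutant 2 and 0.32 without mutant 3. The p53 half-site occurred in 8.36% of all windows and in 2 of the 7, that of Mycl and that of the first Cdkn1a start, where it stood 2 times. The stretch at chr17:29090729-29090968 (plus strand) is shown because Cdkn1a is read here beside other p53 targets, with the half-sites in capitals.
Cdkn1a: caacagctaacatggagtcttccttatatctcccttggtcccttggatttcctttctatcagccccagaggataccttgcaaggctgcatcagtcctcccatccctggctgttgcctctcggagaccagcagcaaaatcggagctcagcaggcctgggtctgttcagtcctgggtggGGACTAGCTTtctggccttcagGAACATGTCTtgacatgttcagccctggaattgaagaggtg
Among 12 other p53 target genes, limma called 0. At an unadjusted p under 0.05, where 12% of all genes were, 1 was higher and 2 were lower in mutants. These were Ccng1, a cyclin G (log2 fold change 0.28, SE 0.076, adjusted p = 0.17), Zmat3, an RNA-binding protein (−0.42, SE 0.14, adjusted p = 0.277), and Bax, which opens mitochondria in apoptosis (−0.26, SE 0.095, adjusted p = 0.304). Ccng1 and Bax did not overlap between groups, in opposite directions, where 8.6% of all genes did not overlap. The list's median was −0.12 (−0.067 without mutant 1 and −0.078 without mutant 4). Under total-count scaling it was 0.013, against 0.14 for all genes.

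Cdkn1b, which lies at chr6:134920401-134925513 on the plus strand, showed no constant direction. It had 531, 577, 731 and 972 normalized counts in mutants 1 to 4, against 486, 707, 563 and 750.0 in controls 1 to 4. Mutant 4 was the highest library and control 1 the lowest. The log2 fold change of 0.15 (SE 0.21, 95% interval −0.32 to 0.61, limma adjusted p = 0.827) turned to −0.083 between mutants 1 and 2 and controls 1 and 2, and was 0.37 between mutant 4 and control 4.

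The libraries differed along a line that crossed the genotypes. Mutant 4, mutant 3 and control 4, with summed proximal tubule counts of 10488, 4258 and 3604, had the 3 lowest Mycn values among the 8 libraries (1291, 1740.0 and 1697) and the 3 highest Cdkn1b values (972, 731 and 750.0). In the other 5 libraries proximal tubule genes summed to 331 to 917. Ccnd2 was lowest in the same 3 libraries and highest in control 1, which had the lowest tubule sum. Cdkn1c did not follow this order, with its highest value in mutant 4 (68907) and its lowest in control 4 (45507). Control 4, the only control among the 3, was also the shallowest library, with 18.4% of its counts from Lars2. The S and G2/M gene sum was also lowest in mutant 4 and control 4, at 94928 and 109321, with 112376 in mutant 3, against 125813 to 139917 in the other 5. Leaving these 3 libraries out, the log2 fold change was 0.048 for Mycn, −0.063 for Cdkn1b and 0.092 for Cdkn1c, while Myc stayed at −0.41, Ccnd1 at 0.30 and Ccnd2 at −0.50 (limma, none passing). Since the libraries left out, mutants 3 and 4 among them, held the extreme Mycn and Cdkn1b values, the shifts of these genes are descriptions and no test. The part of the tubule genes in these values was not tested.

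**Figure D3:**
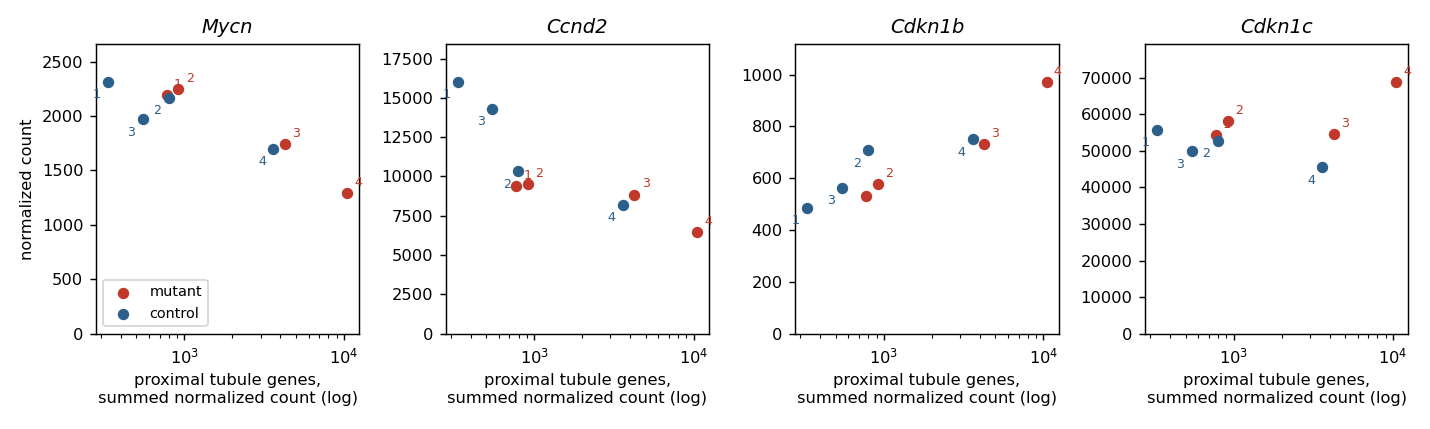
Normalized counts of Mycn, Ccnd2, Cdkn1b and Cdkn1c (vertical axes, from 0) against the summed normalized count of proximal tubule genes (horizontal axis, log scale) in 4 mutant and 4 control libraries, numbered by replicate. Mycn and Ccnd2 are lowest and Cdkn1b highest in mutant 4, which has the highest tubule sum, 10488. Cdkn1c is highest in mutant 4 and lowest in control 4.

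Per kilobase of the longest coding transcript, the levels of the 9 genes spanned a wide range. Cdkn1c stood alone at 31049.9 ± 3583 normalized counts per kilobase in mutants and 26824 ± 2308 in controls. Ccnd1 (6524 ± 436 in mutants, 5226 ± 714 in controls) and Ccnd3 (4748 ± 228 in mutants, 4581 ± 438 in controls) overlapped in their ranges over the 8 libraries. Ccnd2 followed at 1349 ± 225 in mutants and 1927.5 ± 567.5 in controls, clear of its neighbours (SD, n = 4 each). Mycn (483 to 865 over all 8 libraries) and Myc (543 to 788) overlapped, as did Myc and Cdkn1a (359 to 554.5), and Mycl (145 to 238) and Cdkn1b (107 to 214).

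Within each family the make-up per kilobase moved a little. Ccnd1 made up 51.7 ± 2.97% of the D-type cyclin level per kilobase in mutants and 44.65 ± 6.99% in controls, and Ccnd2 10.7 ± 1.64% in mutants and 16.3 ± 4.40% in controls. The ratio of Ccnd1 to Ccnd2 per kilobase was 4.38, 3.98, 5.04 and 6.48 in mutants 1 to 4, against 1.68, 3.60, 2.29 and 4.36 in controls 1 to 4. The ratio in control 4 was above that in mutant 2, so the groups overlapped, and controls 1 and 3 were the lowest. Myc made up 37.98 ± 4.51% of the Myc family level per kilobase in mutants and 43.8 ± 3.52% in controls. These shares are descriptions, since a share falls when another member's level is higher.

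The 6 genes on the list of G1 kinases and E cyclins, which act with and after the D-type cyclins, include the phosphatase Cdc25a. All 6 fold changes were negative, where 48.3% of all genes were. Their median was −0.27, and limma called 0. The median was −0.137 under total-count scaling, where that of all genes was 0.14. It was −0.145 between mutants 1 and 2 and controls 1 and 2, and −0.138 without control 4, mutant 3 and mutant 4. At an unadjusted p under 0.05, where 12% of all genes were, there were 2. These were Cdk2, the kinase partner of the E cyclins (log2 fold change −0.34, SE 0.10, adjusted p = 0.231), and Ccne1, cyclin E1 (−0.41, SE 0.17, adjusted p = 0.369). The 3 retinoblastoma genes had positive values, led by Rb1 (0.29, SE 0.16, adjusted p = 0.523) and Rbl2, which encodes p130 (0.22, SE 0.15, adjusted p = 0.592). Of 8 E2F genes 5 were negative, where 48.3% of all genes were, with a median of −0.11 (0.028 under total-count scaling, against 0.14 for all genes). The smallest p among them were those of the activator E2f3 (−0.34, SE 0.16, adjusted p = 0.448) and the repressor E2f4 (−0.13, SE 0.11, adjusted p = 0.668). None of the retinoblastoma or E2F genes had an unadjusted p under 0.05 by limma. Of the INK4 inhibitors, Cdkn2c (0.26, SE 0.18, adjusted p = 0.592) and Cdkn2d (−0.034, SE 0.17, adjusted p = 0.961) were tested, and Cdkn2a and Cdkn2b, with at most 0.932 and 11.3 normalized counts in any library, were under the filter.

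Of 15 genes known as Myc targets, most of them in ribosome production, 14 had negative fold changes, where 48.3% of all genes did, and limma called 0. The list's median was −0.17, against 0.0087 for all genes tested, and −0.036 under total-count scaling, against 0.14 for all genes. At an unadjusted p under 0.05, where 12% of all genes were, there were 3. These were Rrs1, a ribosome assembly factor (log2 fold change −0.21, SE 0.067, adjusted p = 0.246), Nop56, a nucleolar protein (−0.24, SE 0.082, adjusted p = 0.27), and Srm, spermidine synthase (−0.24, SE 0.091, adjusted p = 0.322). Rrs1 had 1985 to 2096 normalized counts in mutants and 2232 to 2443 in controls, so the groups did not overlap, and neither did those of Nop56. Of all genes, 4.43% had mutants wholly below controls. The summed list was lowest in mutants 4 and 3, at 139445 and 152659, and mutants 1 and 2, at 186117 and 176399, lay within the controls, at 168187 to 202393. Between mutants 1 and 2 and controls 1 and 2 the list's median was −0.078, and without mutant 4 it was −0.11.

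In the Max network 0 of 9 genes passed by limma, and at an unadjusted p under 0.05, where 12% of all genes were, there were 2. They were Max, the obligate partner of Myc proteins (log2 fold change −0.18, SE 0.075, adjusted p = 0.366), and Mxd1, which competes with Myc for Max (−0.38, SE 0.13, adjusted p = 0.27). For both, the mutant libraries lay wholly below the control libraries, as they did for 4.43% of all genes. Max had 1434 to 1609.5 normalized counts in mutants and 1647.5 to 1789 in controls, and Mxd1 206.5 to 266 in mutants and 299 to 331 in controls. Among 8 genes of the ubiquitin machinery that degrades cyclins, Myc and p27, limma called 0 and none had an unadjusted p under 0.05, with Cks1b (−0.28, SE 0.13, adjusted p = 0.424) and Skp2 (−0.11, SE 0.12, adjusted p = 0.757), which together target p27, having the smallest p. Of 16 S and G2/M genes, 15 had negative values, where 48.3% of all genes did, and the list's median was −0.11. It was 0.018 under total-count scaling, where the median of all genes was 0.14. Between mutants 1 and 2 and controls 1 and 2 it was 0.0052, without mutant 4 −0.017 and without control 1 −0.069. Limma called 0. Tyms, thymidylate synthase (−0.17, SE 0.073, adjusted p = 0.397), was the single gene at an unadjusted p under 0.05, where 12% of all genes were. Pcna, the DNA polymerase clamp, had −0.18 (SE 0.11, adjusted p = 0.553). Limma voom, which called 68 of all 14974 genes, also called none of the genes on these lists. With library weights, where 574 of all genes were called, it called 1, on the p53 target list.

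**Figure D4:**
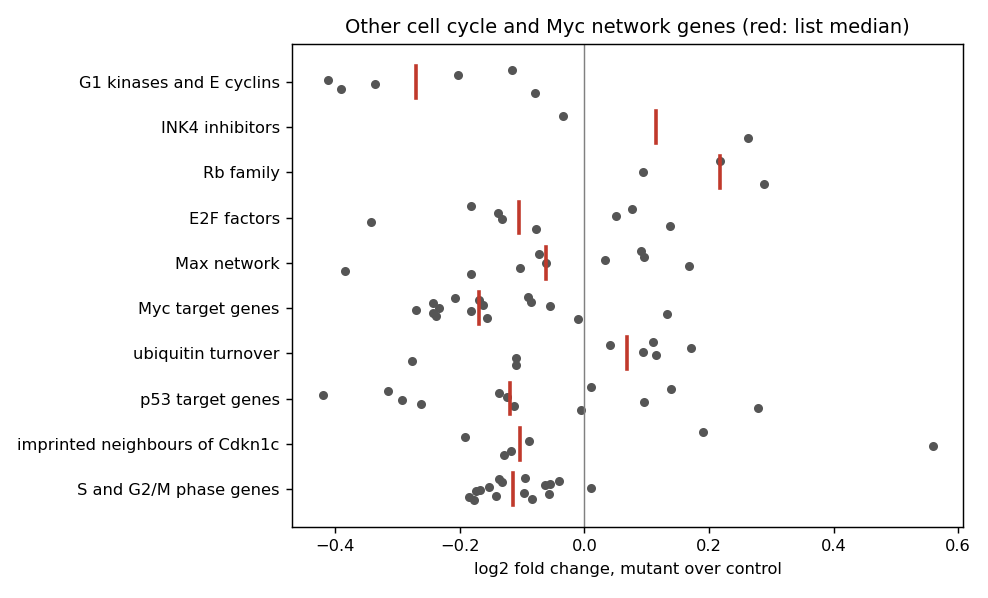
Log2 fold changes, mutant over control (horizontal axis), of the tested genes on each list of partners and targets (points), with the list's median (red bar). All 6 genes in the row of G1 kinases and E cyclins, which includes the phosphatase Cdc25a, lie below 0. So do 14 of 15 Myc target genes, and all 3 retinoblastoma genes lie above 0. Of all genes tested, 48.3% lie below 0.

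The genes whose levels followed the 3 members of smallest p most closely over the 8 libraries were picked by Pearson's r of log2 normalized counts among 11745 genes. For Myc these were Foxc1, a transcription factor gene of kidney mesenchyme (r = 0.992), Stc1, the hormone stanniocalcin (0.987), and Tob1, an antiproliferative protein (0.985). Tob1 itself was lower in mutants (log2 fold change −0.90, limma adjusted p = 0.0457), with 352 to 428 normalized counts in mutants and 586 to 929.5 in controls. For Ccnd1 they were Bambi, a pseudoreceptor that dampens TGF-beta and BMP signalling (0.984), Chst15, a sulfotransferase (0.983), and Ednrb, an endothelin receptor (0.981). For Ccnd2 they were Rbm25, a splicing factor (0.992), Smarcc1, a chromatin remodelling subunit (0.991), and Pfas, a purine synthesis enzyme (0.987). These r values are descriptions over 8 libraries of 2 groups, and for all 3 members they include the group difference. For Myc and Ccnd1 the groups did not overlap.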

How the data were processed

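Kidneys were snap frozen as pairs, and libraries of polyadenylated RNA were sequenced from both ends, per the labels' protocols. The submitters' processing notes name fastp 0.23.2, kallisto 0.46.0, DESeq2 1.40.2 and build mm10, with no roles stated. The values in the authors' deposited expression table are log2 of an estimated count plus 1 without depth correction: 73.4% of them gave whole counts within 1e-06, and totals differed between libraries. The authors' deposited second table holds, for 644 genes, p-values, a fold change in log2 with its error, a statistic that is a score, and a mean normalized count that is a signal.

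Size factors from medians of ratios (0.361 to 1.27) scaled the recovered counts. A gene was tested if its normalized count reached 10 in 4 libraries, the size of the smaller group. The test was limma 3.58.1 (R 4.3.3) on log2(normalized count + 1) (eBayes with trend), two-sided, with genotype as the single term and Benjamini-Hochberg adjustment over 14974 genes. Fold changes on this scale understate those of low genes. The alternatives covered filters, pseudocount, scaling, trend, voom, blocks and libraries left out, with size factors kept from all 8 libraries. The steps were tested on simulated data in which the added changes were larger than that of any member. That test therefore says nothing about differences of the members' size. The labels number the libraries as separate samples, and p-values measure the spread between these samples. Values carry counting error set by depth, most in control 4, where Mycl had 244 counts.

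Members, lists and marker genes were chosen with earlier results of these data known. Named genes are the 9 members, the 2 genes of smallest p in each list where none passed, and, for the 3 members of smallest p, the 3 genes of highest r. Outside this rule, Srm, Bax, Mki67, Six2, Cdc25a, Kcnq1, Phlda2, Nap1l4 and Cd81 were named after their values were seen. Erythroid, stroma, endothelial, macrophage and ureteric tip marker sums were 207967 to 403466, 101370.5 to 105288, 19492 to 21892, 2794 to 3488 and 6473 to 11591 in mutants, and 178347 to 308330.1, 49119 to 137565, 13707 to 17942, 1807 to 2701 and 13511 to 19957 in controls. Hbb-bs is not analysed here. The defining tubule genes Slc34a1, Slc5a2 and Fbp1 were at 0 in some libraries.

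Gene positions and transcripts are from GENCODE M21 on GRCm38, the assembly of mm10. In 31-base words on either strand, members shared none with each other. With other genes, Cdkn1c shared 27.2%, Ccnd1 22.3%, Cdkn1a 9.78%, Ccnd3 7.95%, Ccnd2 6.95% and the remaining 4 at most 0.273%. Counts that were not whole occurred in all 8 libraries for Ccnd1 and Ccnd3, in 2 for Cdkn1a and in 0 for Cdkn1c. The sources used here do not say whether counting used strand, so reads of overlapping antisense genes cannot be told apart. Figures were drawn with matplotlib 3.10.9.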

Additional observations from a re-analysis of the deposited data

How the results depend on the processing

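Over 22 alternatives, 190 of 198 fold changes of the 9 genes kept their direction and their side of the threshold. Myc alone passed, in 1 alternative, voom with library weights, where 1 of the 9 genes and 574 of all 14974 were past the threshold. The 7 changes of sign were 3 for Cdkn1b, 3 for Mycn and 1 for Myc, none of them past the threshold. Without depth correction, which moved the median of all genes to 0.48, Myc stood at 0.066 and Mycn at 0.32. Cdkn1b was −0.083 in mutants 1 and 2 and controls 1 and 2 alone and −0.063 without control 4, mutant 3 and mutant 4, where Mycn was 0.048. Leaving out 1 library at a time gave −0.024 to 0.27 for Cdkn1b, −0.25 to 0.016 for Mycn and −0.46 to −0.36 for Myc (limma adjusted p 0.057 to 0.278), with 0 of the 9 past the threshold each time.

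The number of genes past the threshold, 12 higher and 33 lower in mutants, depended on the analysis. Higher and lower counts were 3 and 8 with total-count scaling, 62 and 18 without depth correction, 7 and 21 without a variance trend, 265 and 309 by voom with library weights, 3 and 14 in mutants 1 and 2 and controls 1 and 2 alone, 60 and 131 without mutant 4 and control 4, and 30 and 111 without control 4, mutant 3 and mutant 4. By voom 20 were higher. Leaving out 1 library gave 0 to 55 higher and 8 to 117 lower, both most without control 4. Mutants and controls of the same replicate number, 1 to 4, had correlations of deviations of 0.266, 0.0983, −0.126 and 0.348. The libraries of replicate 3 do not share a library number, while those of the other replicates do. Mutant 1 with control 2 and mutant 2 with control 1, which also share it, had 0.0678 and 0.236. Pairs without a shared library number ran from −0.307 to 0.179. The labels do not say whether libraries were paired. With the replicate number as a block, 45 were higher and 88 lower, and the replicate block changed no call among the 9 genes. The cause of these shifts was not tested. Total-count scaling moved the median of all genes to 0.14. The lowest count of any member was 244, for Mycl in control 4, where depth limits Mycl, Cdkn1b and Cdkn1a most.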

Other observations

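Mki67, the proliferation antigen, differed little in its group means, at 16118 ± 3290.1 normalized counts in mutants and 16554 ± 5471 in controls (SD, n = 4 each). Its lowest values were in mutant 4 (11679.8) and in control 4 (8947.5), the shallowest library, which lowers the control mean. Controls 1 to 3 had 21777.5, 16794.4 and 18698.3, against 19372.1, 17571.5 and 15846.9 in mutants 1 to 3. Mki67 was picked after its values were seen and is the exception on its list. Of the 16 S and G2/M genes it alone was positive (0.011 on the log2 scale), and 15 were negative.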
